A study of Mus musculus with 8 samples.

Results

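The genes described here are the Id inhibitors Id1, Id2 and Id3 and the E protein genes Tcf3, Tcf4 and Tcf12, which are 6 of the 19937 genes measured. A gene was counted where a probe set of the array was annotated to its symbol alone. Each of the 6 had exactly 1 such probe set, so no choice between probe sets was needed. RNA came from mouse regulatory T cells (Tregs), lymphocytes that carry FoxP3 and restrain immune responses, sorted from mice labelled as Bcl6 knock-out (KO) and from wild-type (WT) mice. Cells of both groups were exposed to CD3 and CD28 stimulation lasting 16 h before extraction, and 100 ng of total RNA was labelled per Affymetrix whole-transcript array. The 4 KO-labelled arrays are KO 1A, KO 1B, KO 2A and KO 2B, and the 4 WT arrays WT 1A, WT 1B, WT 2A and WT 2B. The number is read here as a preparation and the letter as an array of it, which the labels do not state. Whether numbers and letters stand for separate mice, cultures or extracts is not told by the labels, nor is which part of Bcl6 was removed, in which cells, or how old the animals were. The p-values therefore measure the spread between these arrays, which may be technical.

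E proteins are basic helix-loop-helix (bHLH) transcription factors that pair through their helix-loop-helix domain and bind E-box DNA with their basic regions. Id proteins have the helix-loop-helix domain but no basic region, so an E protein caught in a pair with an Id protein cannot hold DNA. In T cells the balance of E and Id proteins is known to set thymocyte development and the choice between effector and memory or follicular fates, and Id2 and Id3 have been described to maintain Tregs. BCL6, a transcriptional repressor, has been described to restrain Id2 in lymphocytes.

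The sequence before the start of the 2 inhibitor genes whose array groups did not overlap, Id2 and Id3, and of the E protein gene Tcf3 is shown because the E-box, the element that E proteins bind, is the link between the 2 classes. Each run holds 250 bases before and 50 after a transcription start, 5′ to 3′ on the gene's strand, from the RefSeq promoter table of build GRCm38.p6, and capitals mark E-boxes (CANNTG).
Id2 promoter, chr12:25096043-25096342, minus strand: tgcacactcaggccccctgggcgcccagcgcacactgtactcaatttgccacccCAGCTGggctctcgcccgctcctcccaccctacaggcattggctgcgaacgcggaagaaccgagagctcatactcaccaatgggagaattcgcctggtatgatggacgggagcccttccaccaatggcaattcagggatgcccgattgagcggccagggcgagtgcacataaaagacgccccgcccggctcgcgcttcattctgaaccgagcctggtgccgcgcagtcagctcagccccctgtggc
Id3 promoter, chr4:136143572-136143871, plus strand: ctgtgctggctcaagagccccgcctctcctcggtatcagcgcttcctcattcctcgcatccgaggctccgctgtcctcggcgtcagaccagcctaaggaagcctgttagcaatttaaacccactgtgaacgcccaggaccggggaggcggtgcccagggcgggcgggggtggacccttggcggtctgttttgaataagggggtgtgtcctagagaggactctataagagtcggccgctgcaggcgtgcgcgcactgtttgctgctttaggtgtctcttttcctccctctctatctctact
Tcf3 promoter, chr10:80433586-80433885, minus strand: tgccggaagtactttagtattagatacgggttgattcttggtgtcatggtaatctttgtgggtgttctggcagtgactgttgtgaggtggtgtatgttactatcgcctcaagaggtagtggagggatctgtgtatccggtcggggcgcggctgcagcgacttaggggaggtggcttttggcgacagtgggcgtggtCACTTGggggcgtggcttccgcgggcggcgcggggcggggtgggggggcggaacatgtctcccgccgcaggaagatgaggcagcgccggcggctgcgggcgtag

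Promoters of 4 of the 6 genes were used, 6 promoters in all, of which 3 belong to Tcf12. The Id2 window held 1 E-box, CAGCTG, which began 196 bases before the start, and the Tcf3 window held 1, CACTTG, 54 bases before it. The Id3 window held 0, and the 3 Tcf12 windows held 1, 2 and 1. Of 32851 promoters in the table, 72.3% held at least 1 E-box on either strand, so its presence is common. The letters TTCNNNGAA, shared by sites of STAT factors and BCL6, were in 8.3% of all promoters and in 0 of these 6, and GCGNGGGCG, which EGR factors bind, was in 5.55% and in 0 of these 6. Both strands were searched for each motif. A match is a description of these windows and says nothing of binding in these cells.

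The arrays differed in ways that touch the results below. Bcl6 itself had log2 levels of 9.0, 8.82, 8.54 and 8.51 in KO 1A, KO 1B, KO 2A and KO 2B, against 7.97, 8.36, 8.33 and 7.86 in WT 1A, WT 1B, WT 2A and WT 2B, so the targeted gene did not check the labels and the arrays are called KO-labelled throughout. Where in the gene its probes lie was not analysed here. Over probe sets, the spread of an array's log2 values (its SD) was 1.87 and 1.84 in KO 1A and KO 1B and 1.65 and 1.61 in KO 2A and KO 2B, against 1.56 to 1.70 in the WT arrays, the highest of them WT 1B. The arrays of WT 1 were not each other's closest, with a correlation over probe sets of 0.968 between WT 1A and WT 1B and 0.994 between WT 1A and WT 2B, while WT 2A and WT 2B correlated at 0.990. Genes of the Y chromosome (Eif2s3y, Kdm5d, Uty) averaged 4.62 to 4.80 log2 in KO-labelled and 6.94 to 8.30 in WT arrays. A difference in sex between the groups, which these genes would follow, and the genotype label cannot be told apart in any difference below. The median log2 difference over all genes was -0.06 as deposited and 0.04 once arrays were centred on their medians, and small differences are to be read against that shift.

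Of the 6 genes Id2 alone passed the test, and it rose. Its log2 level was 9.76, 9.63, 8.52 and 8.33 in KO 1A, KO 1B, KO 2A and KO 2B, against 6.27, 6.63, 6.03 and 6.04 in WT 1A, WT 1B, WT 2A and WT 2B. All 4 KO-labelled arrays lay above all 4 WT arrays, with a gap of over a log2 unit between the groups, and the KO 1 arrays lay above the KO 2 arrays. The group means were 9.06 ± 0.74 in KO-labelled and 6.24 ± 0.28 in WT Tregs (SD, n = 4 each), a 7.05-fold difference. The log2 difference was 2.82 (SE 0.35, 95% interval 2.06 to 3.57), with an adjusted p of 0.00652 in limma with Benjamini-Hochberg adjustment over all genes, and it ranked number 6 of 19937 differences from the top. The preparations stood 10.9-fold (KO 1) and 4.54-fold (KO 2) above the WT mean. The call was lost without both arrays of WT 2, where limma called 0 genes of either direction (200 at an unadjusted p under 0.05) and Id2 had a log2 difference of 2.61 with an adjusted p of 0.559. Cells with more Id2 and a larger share of Id2-expressing cells cannot be told apart in bulk RNA, here or in the other values.

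Id3, the inhibitor induced by antigen receptor signals and kept in naive and memory-type T cells, had lower values in the KO-labelled arrays but did not pass the test. Its log2 level was 6.75, 6.63, 6.63 and 6.74 in KO 1A, KO 1B, KO 2A and KO 2B, against 7.05, 7.74, 7.39 and 6.96 in WT 1A, WT 1B, WT 2A and WT 2B. The KO-labelled arrays lay close together and below every WT array, while the WT arrays were spread more widely. The means were 6.69 ± 0.07 in KO-labelled and 7.28 ± 0.36 in WT Tregs (SD, n = 4 each), and the log2 difference was -0.60 (SE 0.30, 95% interval -1.25 to 0.06, limma adjusted p = 0.701). As deposited, the difference from WT was -0.59 in KO 1 and -0.60 in KO 2, but after quantile normalization it was -0.33 in KO 1 and -0.65 in KO 2. The groups overlapped after median centring and after quantile normalization, in the second at 6.56 to 6.98 in KO-labelled and 6.83 to 7.77 in WT arrays, with a difference of -0.49 (limma adjusted p = 0.471). With array SD as a covariate the difference was -0.68 and passed (limma adjusted p = 0.00281), in a fit that called 1599 genes higher and 884 lower.

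Id1, an inhibitor induced by BMP signals in many tissues, showed no difference past the test. Its log2 level was 6.47, 6.28, 6.56 and 6.53 in KO 1A, KO 1B, KO 2A and KO 2B, against 6.54, 6.60, 6.72 and 6.87 in WT 1A, WT 1B, WT 2A and WT 2B. The groups overlapped only through KO 2A and WT 1A, and the whole range was narrow. The log2 difference was -0.22 (SE 0.19, 95% interval -0.64 to 0.20, limma adjusted p = 0.701), at -0.30 for KO 1 and -0.13 for KO 2. It was -0.08 after quantile normalization, where KO 1 turned to 0.01, and -0.12 after median centring. The files hold no detection calls. Log2 levels of Id1 and Tcf4 lay below the array's own median (6.80 to 7.13) on every array. Those of Id2 did so on every WT array, and those of Id3 on every KO-labelled array. How far these probe sets stood above background was not tested. The fold difference of Id2 and the low Id3 values are to be read with that limit.

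**Figure D1:**
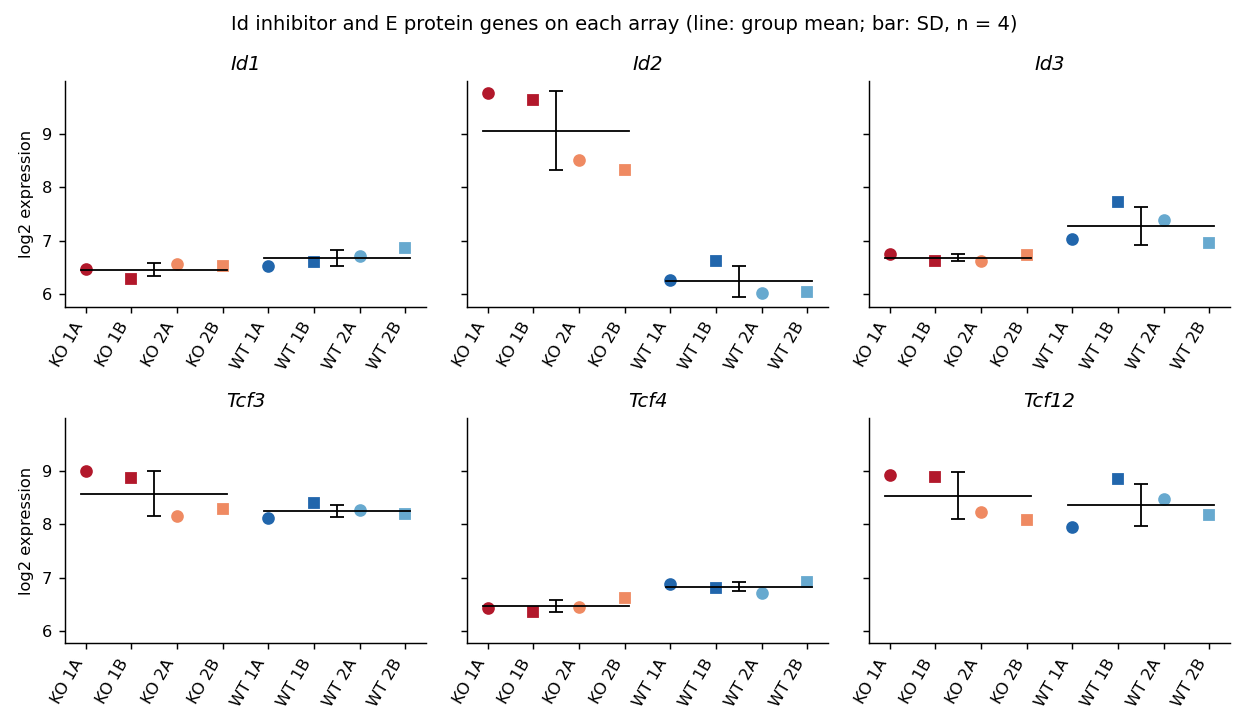
Log2 expression of the 6 genes (y axis, 1 scale for all panels) on each of the 8 arrays (x axis, KO-labelled left of WT, circles for array A and squares for array B). Lines are group means and bars SDs of 4 arrays. Id2 stands at 8.33 to 9.76 in the KO-labelled arrays, above 6.03 to 6.63 in the WT arrays, while the groups of Id1, Tcf3 and Tcf12 overlap. Levels are of different probe sets and are not to be compared between genes.

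The E protein genes did not pass the test in either direction. Tcf3, whose E protein pairs drive early lymphocyte development, had log2 levels of 8.99, 8.86, 8.15 and 8.29 in KO 1A, KO 1B, KO 2A and KO 2B, against 8.12, 8.40, 8.27 and 8.19 in WT 1A, WT 1B, WT 2A and WT 2B. Only the KO 1 arrays lay above the WT arrays, and the KO 2 arrays lay among them. The log2 difference was 0.33 (SE 0.27, 95% interval -0.26 to 0.91, limma adjusted p = 0.701), made of 0.68 in KO 1 and -0.03 in KO 2. After quantile normalization it was 0.07 (limma adjusted p = 0.817), with KO 1 at 0.21 and KO 2 at -0.07.

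Tcf12, whose product pairs with that of Tcf3 in thymocytes, had the same pattern in the KO-labelled arrays and a wider spread in WT. Its log2 levels were 8.92, 8.89, 8.23 and 8.08 in KO 1A, KO 1B, KO 2A and KO 2B, against 7.95, 8.84, 8.47 and 8.17 in WT 1A, WT 1B, WT 2A and WT 2B. WT 1B lay just below the KO 1 arrays, and the other WT arrays reached down past KO 2. The log2 difference was 0.18 (SE 0.38, 95% interval -0.64 to 0.99, limma adjusted p = 0.802), at 0.55 for KO 1 and -0.20 for KO 2. Its sign turned to -0.07 after quantile normalization, to -0.04 without WT 1A and to -0.20 without both arrays of KO 1. The 3 highest arrays for Tcf3 and for Tcf12 were KO 1A, KO 1B and WT 1B, which were also the 3 arrays with the widest spread of values over all probe sets. With that spread as a covariate the differences were -0.06 for Tcf3 (limma adjusted p = 0.667) and -0.29 for Tcf12 (limma adjusted p = 0.0299). Tcf12 thus passed as lower there, in a fit that called 1599 genes higher and 884 lower.

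Tcf4, the E protein gene known for directing plasmacytoid dendritic cells and also expressed in B cells, had lower values in the KO-labelled arrays but did not pass. Its log2 levels were 6.44, 6.36, 6.45 and 6.62 in KO 1A, KO 1B, KO 2A and KO 2B, against 6.89, 6.81, 6.72 and 6.92 in WT 1A, WT 1B, WT 2A and WT 2B. Every KO-labelled array was below every WT array, and KO 2B and WT 2A came closest. The difference was -0.37 (SE 0.19, 95% interval -0.79 to 0.05, limma adjusted p = 0.701), at -0.43 for KO 1 and -0.30 for KO 2. After quantile normalization the groups overlapped, at 6.39 to 6.71 in KO-labelled and 6.67 to 6.87 in WT arrays, with a difference of -0.23 (limma adjusted p = 0.448). After median centring they stayed apart, the highest KO-labelled value at -0.36 and the lowest WT value at -0.32. The difference was then -0.265 and did not pass (limma adjusted p = 0.716).

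Over the 6 genes, limma called 1 higher, against a background of 0.12% of all genes called higher, and 0 lower, against 0.015%. Without adjustment, at a p under 0.05, the counts were 1 higher (5.65% of all genes) and 0 lower (0.542%). After quantile normalization limma called 1 of the 6 in either direction, again Id2, against 0.787% of all genes. Arrays did not overlap in 1 gene that was higher (6.67% of all genes) and in 2 that were lower (2.11% of all genes). The median of the 6 differences was -0.02, beside -0.06 over all genes. Of the 5 genes other than Id2, the differences ran from -0.60 for Id3 to 0.33 for Tcf3, and no interval among them reached 2.06, the lower end of that of Id2.

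**Figure D2:**
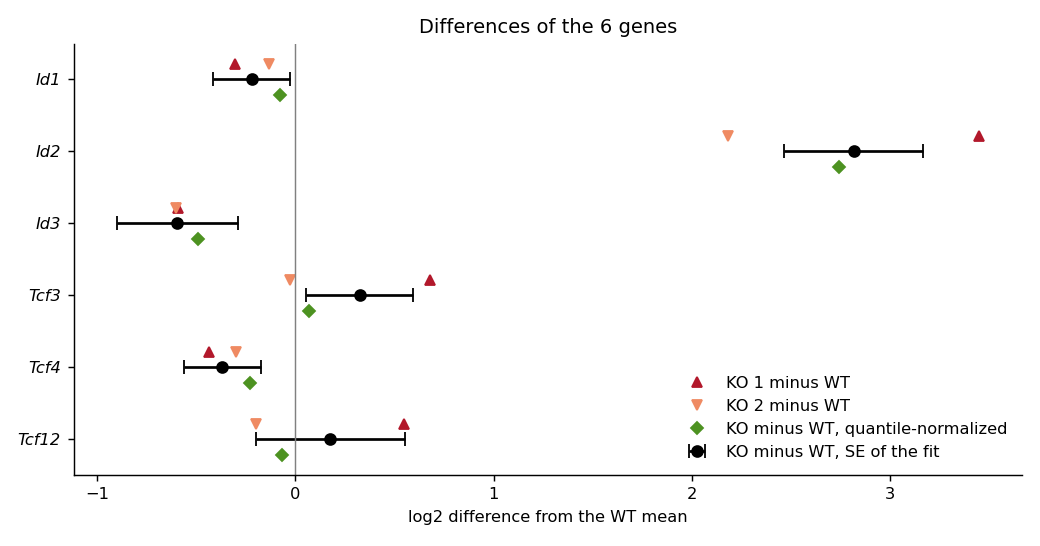
Log2 difference from the WT mean (x axis) for each of the 6 genes (rows). Black circles are KO-labelled minus WT with the SE of the limma fit, red upward and orange downward triangles preparations KO 1 and KO 2, and green diamonds the difference after quantile normalization. Id2 stands at 2.82, and the triangles of Tcf3 and of Tcf12 lie on opposite sides of 0.

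The comparison of Id2 with its relatives was made within arrays, where a shift of a whole array's level cancels. The difference in spread between arrays described above does not cancel in it. For each array the log2 level of the other gene was taken from that of Id2, and the KO-labelled arrays were compared with the WT arrays, in 5 pairs. Only the change in this contrast is read, since levels of different probe sets cannot be compared. Against Id3 the contrast, counted from its WT mean, was 4.05, 4.04, 2.93 and 2.63 in KO 1A, KO 1B, KO 2A and KO 2B and 0.27, -0.06, -0.32 and 0.12 in WT 1A, WT 1B, WT 2A and WT 2B. The groups were far apart, and the shift of Id2 exceeded that of Id3 by 3.41 log2. It exceeded that of Id1 by 3.04 and that of Tcf4 by 3.18. It exceeded that of Tcf3 by 2.49 and that of Tcf12 by 2.64, the smallest of the 5 values belonging to Tcf3. After quantile normalization the excess was 2.82 over Id1, 3.24 over Id3, 2.67 over Tcf3, 2.97 over Tcf4 and 2.81 over Tcf12. In all 5 pairs as deposited the lowest KO-labelled value exceeded the highest WT value. The exact two-sided permutation test over the 8 arrays gave 0.0286, the smallest p it allows, which stayed 0.0286 adjusted over the 5 pairs. This outcome was fixed by Id2 alone, whose lowest KO-labelled value was 8.33 and highest WT value 6.63. No other of the 6 genes ranged as widely as that gap over the 8 arrays, the widest being Id3 at 6.63 to 7.74. The 5 results therefore add nothing beyond the Id2 levels, and the test treats arrays A and B of a preparation as independent. With whole preparations permuted the smallest p the design allows is 0.333, and each of the 5 pairs had it, so this test cannot pass.

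The preparations came closer together in the contrast with Tcf3 and Tcf12 than in the level of Id2. Id2 alone stood 3.45 above WT in KO 1 and 2.18 in KO 2. Relative to Tcf3 it stood 2.77 above WT in KO 1 and 2.21 in KO 2, and relative to Tcf12 2.90 in KO 1 and 2.38 in KO 2. Relative to Id3 the values were 4.04 in KO 1 and 2.78 in KO 2, relative to Tcf4 3.88 in KO 1 and 2.48 in KO 2, and relative to Id1 3.75 in KO 1 and 2.32 in KO 2. These values are as deposited, with the wider spread of the KO 1 arrays left in. Whether these gaps between preparations differ from each other was not tested.

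**Figure D3:**
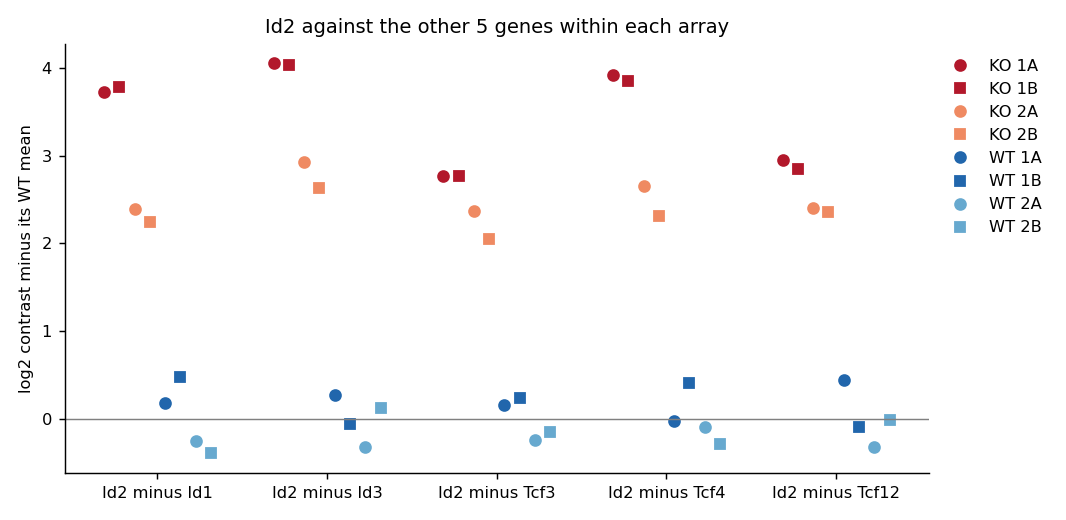
Log2 level of Id2 minus that of each other gene, counted from the WT mean of that contrast (y axis), for each array (points, KO-labelled left of WT within each pair). In every pair the KO-labelled arrays stand at 2.05 or above and the WT arrays at 0.47 or below.

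The KO-labelled preparations were also set against each other, as a comparison of these 2 preparations and not of a condition. Limma called 3 of the 6 genes different between KO 1 and KO 2, where it called 58.8% of all genes, so this count is near the background. Id2 was higher in KO 1 by 1.27 log2 (SE 0.17, adjusted p = 0.000586), and the difference was 0.80 after quantile normalization (adjusted p = 0.0205). Tcf3 was higher by 0.71 (SE 0.17, adjusted p = 0.00661) and Tcf12 by 0.75 (SE 0.25, adjusted p = 0.023), and both calls were lost after quantile normalization, at 0.27 (adjusted p = 0.145) and 0.33 (adjusted p = 0.289). Id3 differed by 0.01 between KO 1 and KO 2 as deposited (SE 0.22, adjusted p = 0.98), by 0.32 after quantile normalization (adjusted p = 0.394) and by 0.29 after median centring (adjusted p = 0.336). Id1 at -0.17 and Tcf4 at -0.14 did not pass, and their signs turned to 0.18 and 0.21 after quantile normalization and to 0.11 and 0.14 after median centring.

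The order of the 4 preparations differed between genes. For Id2 it ran KO 1 (9.69), KO 2 (8.43), WT 1 (6.45) and WT 2 (6.04). No preparation's arrays overlapped those of another, but WT 1A was closer to WT 2B than to WT 1B. For Id3 KO 2 (6.68) and KO 1 (6.69) were lowest, with overlapping arrays, and WT 2 (7.17) and WT 1 (7.39) followed, also with overlapping arrays. For Tcf3 KO 1 (8.92) stood apart, and KO 2 (8.22), WT 2 (8.23) and WT 1 (8.26) had overlapping arrays. For Tcf12 KO 1 (8.91) was followed by WT 1 (8.40), WT 2 (8.32) and KO 2 (8.16), again overlapping. For Tcf4 the order was KO 1 (6.40), KO 2 (6.54), WT 2 (6.82) and WT 1 (6.85), with the WT arrays overlapping each other. For Id1 it was KO 1 (6.38), KO 2 (6.55), WT 1 (6.57) and WT 2 (6.80), where KO 2 and WT 1 overlapped.

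Lists of genes around the Id and E proteins were counted next. Of 22 measured further bHLH factors of 23 listed, limma called 0, with 1 higher (5.65% of all genes) and 0 lower (0.542%) without adjustment at p under 0.05. Their median difference was -0.14 beside -0.06 over all genes as deposited, and -0.01 beside -0.01 after quantile normalization. That 1 was Bhlhe40, a bHLH repressor induced in activated T cells, at 8.24 ± 0.44 in KO-labelled and 7.33 ± 0.17 in WT arrays (SD, n = 4 each), which differ by 0.91 log2 (SE 0.27, limma adjusted p = 0.455). Its relative Bhlhe41 had a difference of 0.25 (SE 0.13) and the muscle factor Myod1 one of -0.38 (SE 0.27), each with a limma adjusted p of 0.701. Id4, the remaining Id gene, was at 7.14 in KO-labelled and 7.23 in WT arrays (limma adjusted p = 0.798), with overlapping arrays. Tal1 and Lyl1, bHLH partners of E proteins in blood cell precursors and leukaemia, had differences of -0.14 and -0.27 with overlapping arrays.

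Zinc finger repressors that bind E-box-like DNA held no called gene among 5 measured. Limma gave 0 at an unadjusted p under 0.05, beside 5.65% of all genes higher and 0.542% lower. Their median was -0.24 beside -0.06 over all genes as deposited, and -0.14 beside -0.01 after quantile normalization. As deposited it was -0.19 for KO 1 and 0.04 for KO 2, beside -0.13 and 0.02 over all genes. Zeb1, which competes for E-boxes in T cell precursors, had a difference of -0.40 (SE 0.34), Snai1 of -0.30 (SE 0.27) and Snai3 of -0.24 (SE 0.22), each with a limma adjusted p of 0.701. Of 11 cofactors of E proteins or Id proteins limma called 0, with none higher and 1 lower (0.542% of all genes) without adjustment at p under 0.05, and the median was 0.03, or -0.05 after quantile normalization. The lower one was Lmo4, a LIM-only protein that joins bHLH complexes through Ldb1, at 7.13 in KO-labelled and 7.90 in WT arrays, with no overlap and a difference of -0.78 (SE 0.30, limma adjusted p = 0.701). Usp1, a deubiquitinase known to stabilise Id proteins, had a difference of 0.84 (SE 0.41, limma adjusted p = 0.701), split into 1.51 for KO 1 and 0.16 for KO 2. Cbfa2t3, a corepressor that E proteins recruit, had one of -0.50 (SE 0.29, limma adjusted p = 0.701).

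Genes described as E protein targets in lymphocytes held no called gene as deposited. Of 19 measured of 22 listed, limma called 0, with 4 higher (5.65% of all genes) and 1 lower (0.542%) without adjustment at p under 0.05. Arrays did not overlap in 5 that were higher (6.67% of all genes) and 1 that was lower (2.11%). The list's median was -0.10 over both preparations, -0.21 for KO 1 and 0.05 for KO 2, beside -0.06, -0.13 and 0.02 over all genes, and it was -0.02 after quantile normalization. The smallest p belonged to Il10, an anti-inflammatory cytokine, whose difference was 2.77 (SE 0.51, limma adjusted p = 0.0676). Il7r, a cytokine receptor chain of resting T cells, had a difference of 1.75 (SE 0.41, limma adjusted p = 0.246), and Ccr7, the lymph node homing receptor, one of -0.89 (SE 0.30, limma adjusted p = 0.568). After quantile normalization limma called 2 of the 19 higher and 1 lower, against 0.787% of all genes called in either direction. These were Il10 and Il7r, higher at 2.73 (adjusted p = 0.0259) and 1.48 (adjusted p = 0.0263), and Ccr7, lower at -1.19 (adjusted p = 0.0316). The thymocyte targets Rag1, Rag2 and Ptcra, which serve antigen receptor assembly, had differences of -0.32, -0.10 and -0.03 with overlapping arrays, that of Ptcra turning to 0.06 after quantile normalization.

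Regulators described upstream of Id genes were the last list. Of 20 measured, limma called 0, with 3 higher (5.65% of all genes) and 0 lower (0.542%) without adjustment at p under 0.05. The median was 0.08 over both preparations, 0.32 for KO 1 and 0.02 for KO 2, beside -0.06, -0.13 and 0.02 over all genes. After quantile normalization it was 0.09, beside -0.01 over all genes. Prdm1, which encodes the repressor Blimp-1 and has been described to restrain Id3, was at 8.35 in KO-labelled and 6.37 in WT arrays. Its difference of 1.98 (SE 0.35, limma adjusted p = 0.0564) passed after quantile normalization at 1.86 (limma adjusted p = 0.0137). Of the 20 it was the 1 called after quantile normalization, against 0.787% of all genes in either direction. Bmpr1a, a BMP receptor whose signals induce Id genes, had a difference of 0.98 (SE 0.29, limma adjusted p = 0.465), at 1.55 for KO 1 and 0.41 for KO 2. Tgfbr1, a TGF-beta receptor, had one of 1.15 (SE 0.44, limma adjusted p = 0.695), at 1.99 for KO 1 and 0.30 for KO 2. Egr1 and Egr3, factors that induce Id3 after antigen receptor signals, had differences of 0.08 and 0.07, which turned to -0.18 and -0.17 after quantile normalization. Egr2 had one of 0.60, at 1.14 for KO 1 and 0.07 for KO 2, and of 0.32 after quantile normalization. All 3 had overlapping arrays as deposited. The receptor-activated Smad1 and Smad5 had differences of -0.27 and 0.06, the second of which turned to -0.13 after quantile normalization, also with overlap.

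**Figure D4:**
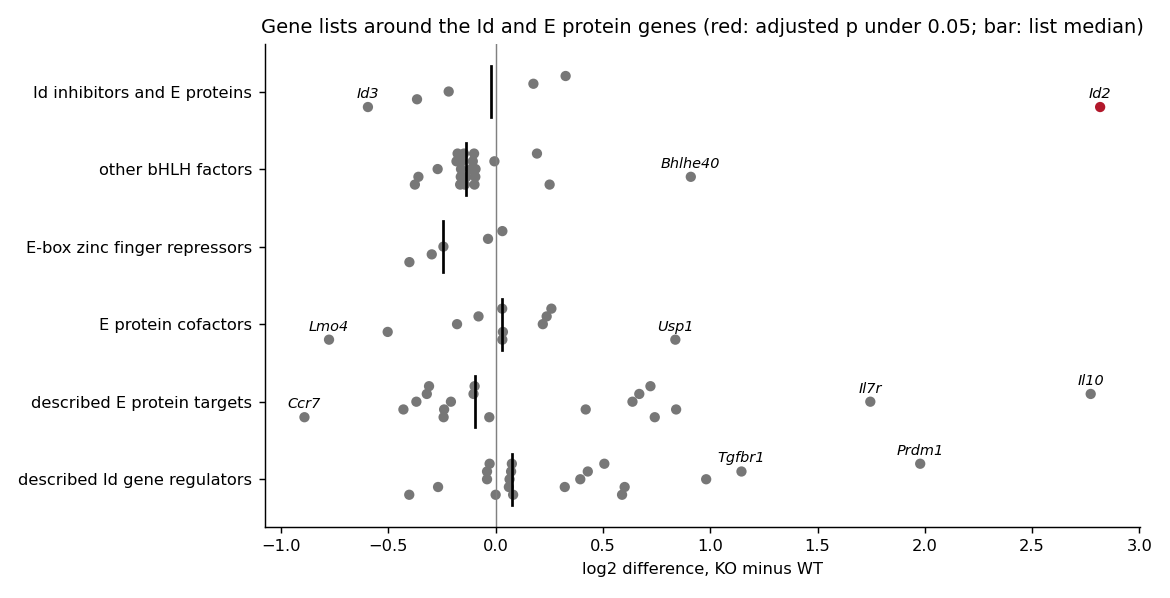
Log2 difference, KO-labelled minus WT (x axis), of every measured gene (points) in the 6 Id and E protein genes and 5 lists around them (rows, with median bars). Red marks a limma adjusted p under 0.05, which Id2 alone reaches among these genes, and the unmarked points farthest to the right are Il10 at 2.77 and Prdm1 at 1.98.

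The genes whose level followed Id2 and Id3 most closely over the 8 arrays were named by Pearson correlation of log2 levels, among genes with an SD of at least 0.5 log2. The 8 points share the KO 1, KO 2 and WT levels of whole arrays, so these correlations are descriptions and carry no test. For Id2 the 5 closest of 2213 genes were Gata3 (r = 0.998), Tspan31 (r = 0.996), Cd200r1 (r = 0.996), Cd44 (r = 0.995) and Cd74 (r = 0.994). Gata3, the factor of Th2 cells that is also used by tissue Tregs, differed by 2.39 from WT in KO 1 and 1.58 in KO 2. Cd44, a hyaluronan receptor that marks activated T cells, differed by 2.18 in KO 1 and 1.43 in KO 2, and Cd74, the invariant chain of MHC class II, by 2.95 in KO 1 and 1.79 in KO 2. All 5 had higher means in KO-labelled than in WT arrays, as Id2 did, with differences of 1.17 for Tspan31 to 2.37 for Cd74.

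For Id3 the 5 closest of 2214 genes were Tubb2a (r = 0.980), Adamts6 (r = 0.968), Parp8 (r = 0.954), Atp1b1 (r = 0.952) and Cd9 (r = 0.950). Their differences ran from -1.24 for Atp1b1, a sodium pump subunit, to -0.82 for Parp8 and for the tubulin gene Tubb2a, and none passed (limma adjusted p of 0.423 to 0.701). Cd9, a tetraspanin, had a difference of -1.09, with -1.03 in KO 1 and -1.14 in KO 2. In all 5, as in Id3, WT 1B was the highest array.

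**Figure D5:**
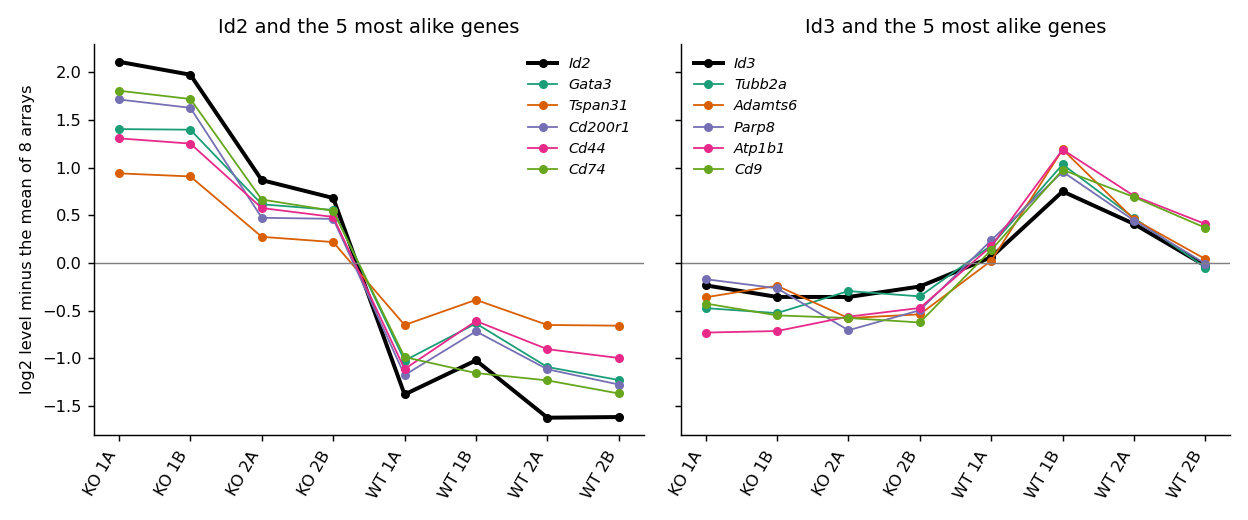
Log2 level minus the gene's mean over 8 arrays (y axis) on each array (x axis, KO-labelled left of WT) for Id2 (left, thick black) and Id3 (right, thick black) with the 5 most alike genes (thin lines). In the Id2 panel KO 1 is highest, KO 2 next and WT lowest, and in the Id3 panel each line has its peak at WT 1B.

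Markers of the sorted cells and of other cells that use these factors were read beside the members. The labelled cell type carried its markers, with Foxp3 at 10.75 ± 0.31 in KO-labelled and 9.91 ± 0.28 in WT arrays (SD, n = 4 each). The 8 Treg markers averaged 10.76 to 11.41 log2 in the KO-labelled and 10.05 to 10.78 in the WT arrays, with 0 called by limma and 4 higher at an unadjusted p under 0.05 (5.65% of all genes). The 7 measured markers of NK and innate lymphoid cells, which depend on Id2, averaged 6.31 to 6.43 in KO-labelled and 6.06 to 6.20 in WT arrays, a range that did not overlap. Within that list limma called 0, with 2 higher (5.65% of all genes) and 0 lower (0.542%) without adjustment at p under 0.05. Those 2 were Rora, which Tregs also express, and Tbx21. Rora had a difference of 0.97 (SE 0.21, limma adjusted p = 0.179), and Tbx21 one of 0.91, at 1.71 for KO 1 and 0.11 for KO 2. Ncr1, an NK cell receptor, was at 5.12 in KO-labelled and 5.22 in WT arrays, and Klrb1c at 4.68 in KO-labelled and 4.78 in WT arrays. Ncr1 and Klrb1c had overlapping arrays, with differences of -0.09 and -0.11 as deposited and 0.02 and -0.03 after quantile normalization. Eomes, Klra8 and Fcgr3 overlapped as well, with differences of 0.06, -0.20 and 0.01 as deposited. The part of such cells in the Id2 values was not tested.

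The 9 measured myeloid markers averaged 6.10 to 6.43 in KO-labelled and 6.14 to 6.42 in WT arrays, and Itgax, a dendritic cell integrin, was at 6.02 in KO-labelled and 6.08 in WT arrays. Arrays did not overlap in 1 of the 9 myeloid markers, which was higher (6.67% of all genes). That 1 was Lyz2, a lysozyme, named after its values were seen. It was at 6.65 to 7.23 in KO-labelled and 6.39 to 6.63 in WT arrays (difference 0.35, SE 0.26, limma adjusted p = 0.701). The 7 measured B cell markers averaged 5.85 to 6.16 in KO-labelled and 5.92 to 6.17 in WT arrays. The 5 measured plasmacytoid dendritic cell markers averaged 7.05 to 7.45 in KO-labelled and 7.43 to 7.60 in WT arrays, and Siglech was at 6.82 in KO-labelled and 7.14 in WT arrays. Their part in the Tcf4 values was not tested. The 3 CD8 T cell markers averaged 6.91 to 7.16 in KO-labelled and 7.14 to 7.36 in WT arrays, with Cd8a at 7.42 in KO-labelled and 7.68 in WT arrays. Limma called 0 markers of these 4 lists, with 0 at an unadjusted p under 0.05. Array values have no true zero, so none of these markers can be called absent.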

How the data were processed

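Expression was measured on 8 arrays, 4 of KO-labelled and 4 of WT Tregs. The authors deposited log2 values per probe set. Per the submitters' processing notes RMA and Partek made them, in versions that the sources used here do not give. The deposited arrays differed in spread, so quantile normalization was also tried. The labels pair no array with a scan or batch. No array was a copy of another: at most 12 of 28768 probe sets had exactly the same value in any pair.

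Of 28768 probe sets, 21771 were annotated to 1 symbol, 1557 to several and 5440 to none. Per gene, the probe set of highest mean was kept (999 genes had several), which left 19937 genes. KO-labelled minus WT was fitted with limma 3.58.1 in R 4.3.3 over all genes, with a variance trend. The preparation, as read from group and number in the labels, was a random block (correlation 0.617). P-values were adjusted by Benjamini-Hochberg over all genes with a threshold of 0.05. The contrast of Id2 with each other gene used an exact permutation test over arrays. KO 1 and KO 2 were compared in a limma fit with 1 mean per preparation, where arrays A and B gave the spread. The fit was tested on simulated data in which every array had noise of the same size, so differences in spread between arrays were not covered. The number of arrays limits the precision, and the files hold no detection calls.

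The text names all 6 genes; in each list around them those called or, where none was, the 3 with the smallest p; the 5 genes most correlated with Id2 and with Id3; and Siglech, Ncr1, Cd8a and Itgax among markers. Further genes of the lists (Id4, Tal1, Lyl1, Rag1, Rag2, Ptcra, Egr1, Egr2, Egr3, Smad1, Smad5, Foxp3, Klrb1c, Rora, Tbx21, Eomes, Klra8, Fcgr3, Lyz2 and the Y-linked genes) were chosen for the text after their values were seen. Members and lists were chosen with earlier results of these data known. Promoters were read from the RefSeq table of GRCm38.p6. Alternatives changed the block, the array weights, the scaling, the filter, the choice of probe set and the arrays used.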

Additional observations from a re-analysis of the deposited data

How the results depend on the processing

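Id2 kept its direction under all 26 alternatives, at log2 differences of 2.11 to 3.45, and passed limma's threshold under 25 of them; without both arrays of WT 2 it was 2.61 (adjusted p = 0.559). Id3 and Tcf4 kept theirs as well. They passed with array SD as a covariate (-0.68 and -0.29), without both arrays of KO 1 (-0.60 and -0.30) and without both arrays of KO 2 (-0.59 and -0.43), as Id1 did without KO 2 (-0.30). In those fits the estimated correlation within preparations was negative, which narrows the standard errors. The fits without KO 1 or KO 2 were therefore repeated with no random block, an alternative chosen after seeing the data. Without KO 2, Id3 (-0.59, limma adjusted p = 0.0215) and Tcf4 (-0.43, limma adjusted p = 0.0103) still passed. Id3 (limma adjusted p = 0.388) and Tcf4 (limma adjusted p = 0.644) without KO 1 and Id1 without KO 2 (limma adjusted p = 0.0648) did not. Without KO 2, however, limma called most of the 19937 genes, 7234 higher and 9666 lower. With no random block it called 5997 higher and 7381 lower. A call without KO 2, for Tcf3 and Tcf12 below as well, is therefore near the background. Tcf3 turned to -0.058 with array SD as a covariate and to -0.028 without KO 1 in both fits, and passed at 0.68 without KO 2 in both. Tcf12 turned to -0.068 after quantile normalization and to -0.20 without KO 1 in both fits. With the covariate it turned to -0.29 and passed as lower (limma adjusted p = 0.0299). Without KO 2 it passed at 0.55 in both fits, and it took values between -0.037 (without WT 1A) and 0.39 with single arrays left out. The causes were not tested.

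The count of genes called higher, 24 as reported, was 92 with no random block, 14 with the letter as a block, 45 with preparation means, 61 with array weights (whose estimation stopped before convergence), 121 after quantile normalization, 12 after median centring and 1599 with array SD as a covariate. It was 1124 without KO 1, 7234 without KO 2, 8 without WT 1 and 0 without WT 2, and 128 without KO 1 and 5997 without KO 2 with no random block. The count called lower, 3 as reported, was 21, 7 and 5 with no random block, preparation means and array weights, 36 after quantile normalization, 884 with the covariate, 11 over every probe set, 341 without KO 1, 9666 without KO 2 and 0 without WT 2, and 16 and 7381 with no random block. Leaving out single arrays gave 13 to 51 higher and 2 to 6 lower.

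Preparation numbers are shared between the groups, but the labels do not say that a number marks a shared origin, and only 2 pairs exist. Same-numbered deviations from the group means correlated at 0.42 over genes. With the number as a replicate block, limma called 620 genes higher and 57 lower, and of the 6 genes Id2 alone passed (2.82, adjusted p = 2.43e-05).

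With whole preparations permuted the contrasts of Id2 with Id1, Id3, Tcf3, Tcf4 and Tcf12 stayed at 3.04, 3.41, 2.49, 3.18 and 2.64, and the exact p was 0.333, the smallest possible. Leaving out single arrays gave 2.79 to 3.30, 3.20 to 3.67, 2.40 to 2.64, 2.94 to 3.48 and 2.53 to 2.79, each at an exact p of 0.0571, the smallest possible for 4 against 3. The gap of Id2 alone fixed these p-values as well. Between KO 1 and KO 2, quantile normalization and median centring turned Id1 to 0.18 and 0.11 and Tcf4 to 0.21 and 0.14, and Tcf3 (0.27) and Tcf12 (0.33) no longer passed after quantile normalization.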
